A study of Mus musculus with 8 samples.

Results

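RNA recovered with DAZL from fetal testes was compared with the RNA of the starting lysate across the genes of a whole mouse genome array. DAZL was pulled down from gonads of XY mouse embryos of strain MCH at the embryonic stage E14.5, and the 2 arrays of the precipitated RNA (XY IP) were set against the 2 arrays of the input RNA (XY input). These were 4 of the 8 arrays of the series, the other 4 being the same comparison in XX gonads. Each sample came from a lot of 50 gonads, the input was 5% of the lysate after debris was spun out, and labelling with Cy3 started from 50 ng of RNA for inputs and from 1 ng for IPs. A lot held whole gonads, in which germ cells, Sertoli cells, Leydig cells, vessels and blood were mixed, and nothing in the labels ties a replicate to a separate set of litters, so p-values measure the spread between these arrays. A pull-down with a nonspecific antibody was not analysed here, and RNA held by the beads was not measured apart from RNA held by DAZL.

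DAZL is an RNA-binding protein made in germ cells, where it binds U-rich sites mostly in the 3′ untranslated regions of mRNAs and acts on their translation and stability. It is needed for the development of germ cells in both sexes. In the fetal testis at this stage male germ cells leave the mitotic cycle and meiosis is held back, and NANOS2, another germ cell RNA-binding protein, is made in them.

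Levels are log2 signals for which 0 is the 75th percentile of all probes on an array, and every difference is the mean of the XY IP arrays minus the mean of the XY input arrays, in log2 units, with its SE from the limma fit and a p-value adjusted by the Benjamini-Hochberg method over 18265 tested probes. A gene was called recovered when its adjusted p was under 0.05, it was at least 4-fold higher in the IP and its probe was well above background on both IP arrays. It was called depleted when it was at least 4-fold lower in the IP, with the same limit on p, and well above background on both inputs. Of 5517 probes above background on both IP arrays, 1104 (20.0%) were recovered. Of 17175 probes above background on both inputs, 1403 (8.17%) were depleted. With 1 probe per gene, 12227 genes were tested, 793 were recovered and 1039 were depleted. The counts depended on the scaling: with arrays scaled to the 50th percentile 196 probes were recovered and 8379 depleted, and with normexp background correction 21 and 801. Without the second IP array 2217 were depleted.

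The IP arrays held less signal than the inputs. On the inputs 18526 and 17901 probes were marked well above background, and on the IPs 6068 and 9468. The 75th percentile to which an array was scaled lay at a signal of 118 and 81.1 on the inputs, and at 6.83 and 13.1 on the IPs, below the lowest signal marked well above background on those arrays (12.8 and 13.4). A difference therefore ranks genes against each other and does not measure the share of an mRNA that was precipitated. Across the 5481 probes detected on each of the 4 arrays, the correlation was 0.995 between the inputs and 0.952 between the IPs, and it lay between 0.551 and 0.635 for an IP with an input, across probes, which are not independent replicates. The median SD between the arrays of a group was 0.095 for the inputs and 0.53 for the IPs.

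Whether an mRNA could be seen in the IP depended on its input level. Of the 11711 genes above background on both inputs, 4345 (37.1%) were also above background on both IP arrays, 772 (6.59%) were recovered and 1039 (8.87%) were depleted. From the lowest to the highest quartile of input signal, the share above background on both IP arrays was 4.20%, 14.8%, 42.3% and 87.1%. A gene of low input could be measured in the IP only if it was high there, and the median difference of the measured genes fell from 3.08 in the lowest quartile to -0.52 in the highest. Classes of genes are therefore described by the share of their input-detected genes that was recovered or depleted. Many of them, but not all, are also described within the top quartile of input signal, where all 2928 genes were counted whether or not the IP detected them. In that quartile 9.08% of the genes were recovered, 16.8% were depleted and the median difference was -0.77.

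**Figure D1:**
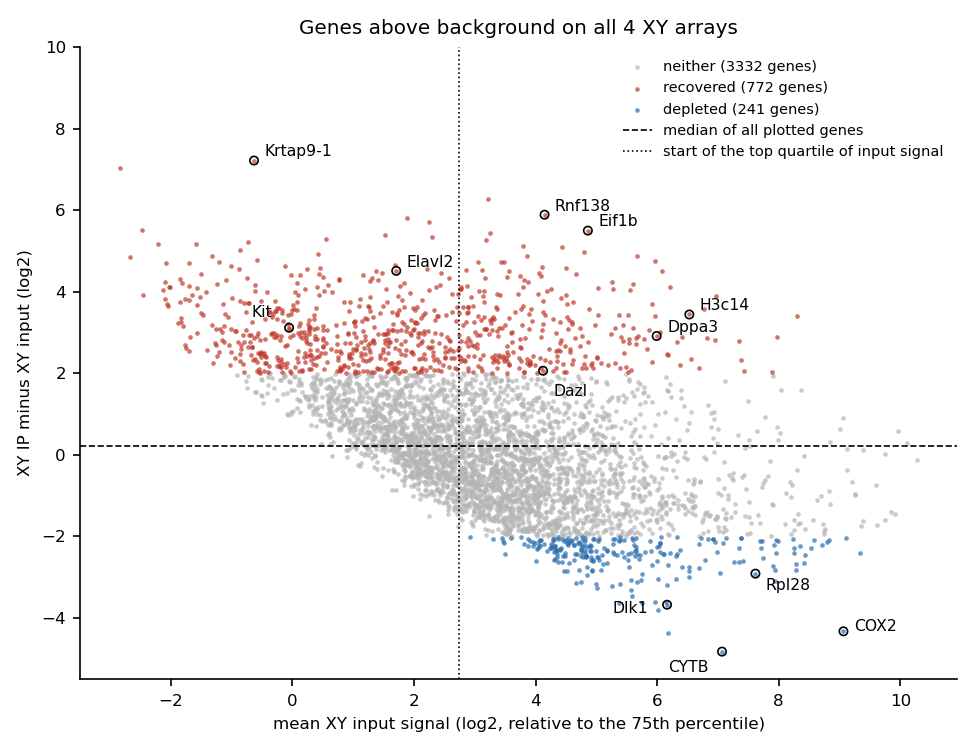
Difference between the XY IP and the XY input (log2) against the mean XY input signal (log2, relative to the 75th percentile) for the 4345 genes above background on all 4 XY arrays, 1 point per gene. Recovered genes (772) and depleted genes (241) are coloured, the dashed line is the median of all plotted genes (0.22) and the dotted line the start of the top quartile of input signal (2.74); the empty lower left corner holds genes too dim in the IP to be measured.

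The mRNA of DAZL itself was recovered with the protein. The Dazl signal was 3.92 and 4.33 in the XY inputs and 6.33 and 6.04 in the XY IPs. Both IP arrays lay above both inputs, and the difference was 2.06 ± 0.39 (SE, n = 2 per group, limma adjusted p = 0.00201). A second Dazl probe, of lower signal, differed by 2.93. The probe described lies at chr17:49745165-49745224 on the mm8 genome that the files use. Dazl stood just past the 4-fold limit, and its call was lost without the first input array (1.86) or without the first IP array (1.92). Its difference was 0.20 with the 50th percentile scaling and turned to -0.14 with normexp correction after outlying local backgrounds were replaced.

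The largest rises formed a mixed group of mRNAs, in which factors of the ubiquitin, NEDD8 and SUMO systems, RNA-binding and translation factors and regulators of transcription stood beside genes hardly present in the input. These groups were formed after the genes were seen and were not counted over all genes. Among the 772 recovered genes above background on all 4 arrays, the 20 largest rises lay between 4.96 and 7.22. Of these 20 genes, 14 also lay at least 4-fold higher in the IP of XX gonads. How many of all recovered genes did so was not counted.

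Rnf138, a RING-type ubiquitin ligase, had signals of 4.09 and 4.21 in the inputs and 9.98 and 10.09 in the IPs. This was a rise of 5.89 ± 0.39 (SE, n = 2, limma adjusted p = 5.79e-06), and all 3 of its probes rose, the smallest by 2.89. Senp8, the protease that removes NEDD8 from its targets, went from 1.82 and 1.94 to 7.80 and 7.60, and its 3 probes rose by 2.05 to 5.82. Pias2, a SUMO ligase, went from 3.72 and 3.86 to 8.75 and 9.08, and of its 4 tested probes 2 rose by 5.12 and 3.52, a dimmer one by 2.23, and another, not above background in the IP, differed by 0.47.

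Eif1b, a paralog of the start codon selection factor eIF1, had IP signals of 10.12 and 10.60 against 4.83 and 4.89 in the inputs. Its rise was 5.50 ± 0.45 (SE, n = 2, limma adjusted p = 2.24e-05) at a probe at chr9:120343753-120343812 (mm8). Rbfox2, a splicing regulator that binds RNA, had inputs of 3.14 and 3.23 and IPs of 8.24 and 8.66. Sdad1, whose yeast counterpart acts in export of the large ribosomal subunit, had inputs of 4.39 and 4.48 and IPs of 9.45 and 9.59. In each of these genes the lower IP array lay more than 4 log2 units above the higher input, but a dimmer second probe of Sdad1, below background in the IP, differed by -0.06.

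Sertad3, a transcriptional cofactor, rose by 6.27 ± 0.46, from 3.01 and 3.45 to 9.19 and 9.80. Zfp318, a zinc finger protein first described in the testis, rose by 5.70 ± 0.38, from 2.26 and 2.24 to 8.16 and 7.75. Chic2, Ttc33, Cep164 (a protein of the centriole's distal appendages) and D030056L22Rik rose by 5.34, 5.45, 5.29 and 4.96. For none of these genes did the difference in recovery between XX and XY pass the test (limma adjusted p between 0.159 and 0.983).

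The rest of the 20 largest rises had input signals mostly below the 75th percentile. Krtap9-1, a hair keratin-associated protein gene, went from -0.55 and -0.71 to 6.36 and 6.81. Dixdc1, a regulator of Wnt signalling, went from -3.04 and -2.62 to 3.94 and 4.44 at the probe used, while its other probe, with a higher mean input signal (0.48) and 1 IP array above background, differed by 0.00017. Serpinc1 (antithrombin), Ly75 (an endocytic receptor) and Ctu1 (a tRNA thiolation enzyme) rose by 5.51, 5.17 and 5.22. Dnajc12, a co-chaperone of the J-domain family, rose by 5.39, from 1.53 and 1.51. The pseudogene 5830417I10Rik rose by 5.03 at the probe used, but by 0.35 and -1.19 at its other probes. Scgb3a2, a secretoglobin, had IP signals of 5.40 and 0.51, so its difference of 5.16 ± 1.09 rested on the first IP array. Of the 20 largest rises, 6 differed in recovery between XX and XY, and all 6 are among the genes of this paragraph. The 20 were picked by their XY rise, which is part of the difference tested.

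A further 16 recovered genes were not above background on either input. The 5 with the largest lower bounds were Olfr1215, an olfactory receptor gene (at least 111-fold higher in the IP), Plek (at least 84.7-fold), Pram1 (at least 72.9-fold), 2310079G19Rik (at least 72.6-fold) and Nkx2-3, a homeobox gene (at least 53.5-fold). Plek, pleckstrin, is a protein of blood platelets and leukocytes, and Pram1 is an adaptor of myeloid cells. Each bound took as the input level, per array, the higher of the signal itself and the lowest signal marked well above background. Of the macrophage markers 11 were above background on both inputs, none of them in the top quartile of input signal. Of these 1, the Fc receptor gene Fcgr1, was above background on both IPs and was recovered (9.09%, against 6.59% of all genes), with a rise of 3.78. The part of leukocyte RNA in these values was not tested.

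**Figure D2:**
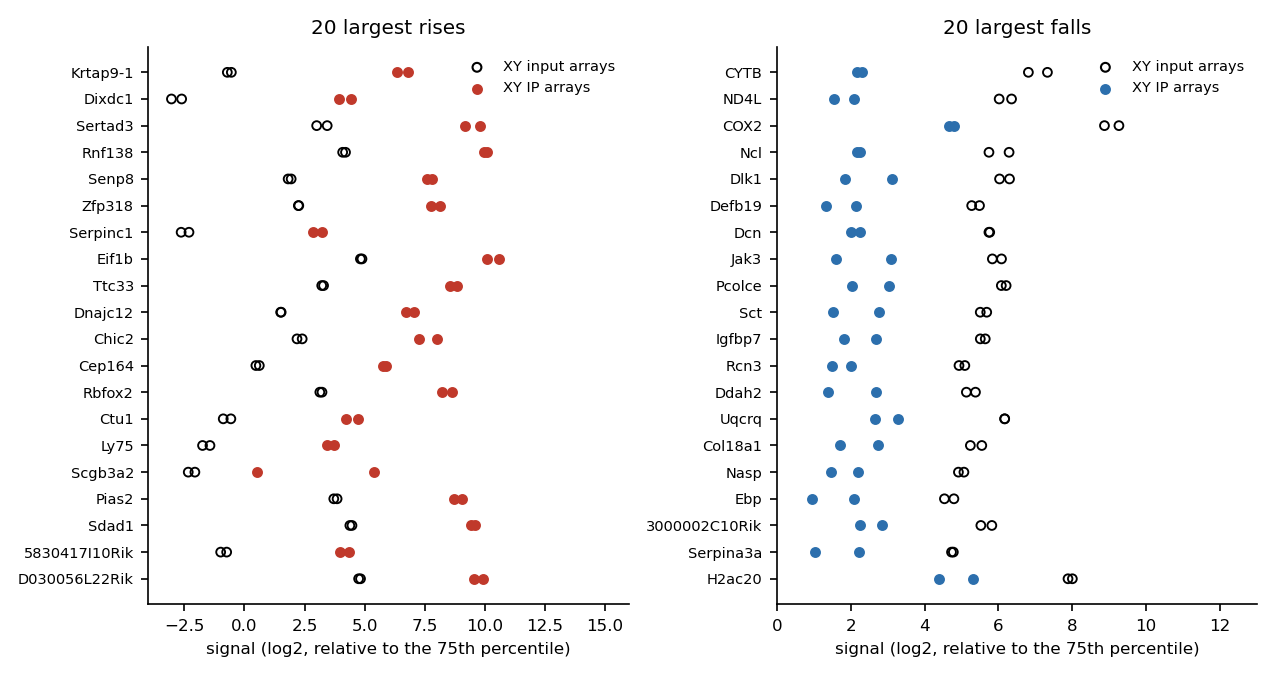
Signal (log2, relative to the 75th percentile) of the 20 largest rises and the 20 largest falls among called genes above background on all 4 XY arrays; open circles are the XY input arrays and filled circles the XY IP arrays, 2 each. The IP arrays of Scgb3a2 lie farthest apart.

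Germ cell mRNAs were recovered in part, and none of the list was depleted. Of 29 genes of germ cell identity above background on both inputs, 12 were recovered (41.4%, against 6.59% of all genes) and 0 were depleted. Elavl2, a neuronal and germline RNA-binding protein of the Hu family, rose most, from 1.69 and 1.72 in the inputs to 6.22 and 6.22 in the IPs, a difference of 4.51 ± 0.37 (SE, n = 2, limma adjusted p = 2.56e-05). Lin28a, the inhibitor of let-7 miRNA processing, rose by 3.50 ± 0.47. Prdm1 (BLIMP1) and Tfap2c (AP2γ), transcription factors of primordial germ cell specification, rose by 3.38 and 2.96. Kit, the receptor for stem cell factor, went from -0.08 and -0.03 to 3.01 and 3.11.

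Dppa3 (Stella) and Dppa4, genes of pluripotent cells and early germ cells, had high input signals and were recovered as well. Dppa3 went from 5.76 and 6.23 to 8.46 and 9.35, and Dppa4 from 3.83 and 3.98 to 5.85 and 6.44. Nanos2 itself went from 0.11 and 0.23 to 1.92 and 2.50, a rise of 2.05 ± 0.43, just past the limit. Other germ cell mRNAs were not recovered. Tex101, which codes for a germ cell surface protein, had inputs of 4.83 and 5.11 and IPs of 3.11 and 3.54, and its difference of -1.64 ± 0.44 (limma adjusted p = 0.0123) was under 4-fold. Dppa5a differed by -1.32 ± 0.50 (adjusted p = 0.0532). In the top quartile of input signal the 9 genes of the list had a median 1.61 above that of all genes (1.83 and 1.39 with each IP array).

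The piRNA pathway, which silences transposons in fetal male germ cells, was also recovered in part. Of 18 genes above background on both inputs, 15 (83.3%, against 37.1% of all genes) were above background on both IPs, 4 were recovered (22.2%, against 6.59%) and 0 depleted. Of the 18 genes 10 lay in the top quartile of input signal, where 87.1% of all genes were above background on both IPs, and 3 of the 10 were recovered, against 9.08% of all genes. The recovered genes were Tdrd5 and Tdrd1, Tudor domain proteins of the germ granule, Pld6, a mitochondrial nuclease of piRNA biogenesis, and Fkbp6, a co-chaperone, with rises of 3.41, 2.32, 2.97 and 2.48. Fkbp6 stood at 6.15 and 6.18 in the inputs and 8.30 and 8.99 in the IPs. Morc1 and Gpat2 stood lowest, at -1.54 ± 0.38 and -1.46 ± 0.41, neither of them a 4-fold fall.

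mRNAs of RNA-binding regulators formed the next group. Of 37 such genes above background on both inputs, 11 were recovered (29.7%, against 6.59%) and 1 was depleted. Besides Elavl2, Dazl and Nanos2, which are also in the germ cell list, these included Msi2, Cpeb1, Celf2, Celf1, Fmr1 and Elavl1. Cpeb1, which binds cytoplasmic polyadenylation elements, went from -0.07 and 0.27 to 3.52 and 4.53, a rise of 3.92 ± 0.46 (SE, n = 2, limma adjusted p = 0.000139). Celf1 and Celf2, which bind GU-rich elements, rose by 3.08 and 3.34, and Fmr1, the fragile X protein, by 3.05. In the top quartile of input signal 4 of 13 genes of the list were recovered, against 9.08% of all genes, and the median lay 0.70 above that of all genes.

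Probes of the same gene did not always move together. Msi2, the Musashi protein, rose by 4.29 at the probe used, while its other probes ranged down to 0.67, and Elavl1 (HuR) rose by 2.59 at its brightest probe and by 0.21 at another that was above background on all 4 arrays. Of the genes named here, 68 had a second tested probe, and for 25 of these a second probe moved by less than 1 log2 unit in the same direction, or the other way. Among them were probes of Srsf10 (0.28) and Spcs2 (0.83) above background on both IPs, of Celf1 (-0.42) above background on 1, and of Celf2 (0.51), Eef2 (1.19) and Inha (-0.81) on neither. Of the 192 recovered genes with more than 1 such probe, 123 passed 4-fold at every one and 8 had a probe below 0. The depleted member was Tia1, a stress granule protein, which was not above background on either IP array and was at least 1.71-fold lower there, so that its size is bounded under 4-fold.

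mRNAs of deadenylation and processing body factors were recovered in 4 of 38 input-detected genes (10.5%, against 6.59%) and depleted in 0. The 4 were Ago4, an Argonaute protein, Tnrc6a and Tnrc6c, the GW182 proteins that link Argonaute to the deadenylases, and Dcp1a, a decapping cofactor. Tnrc6a went from 2.28 and 2.41 to 5.27 and 5.40, Tnrc6c rose by 3.08, Ago4 by 3.19 and Dcp1a by 2.48. In the top quartile of input signal none of the 6 genes of the list was called and all 6 lay above the median of all genes.

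Some meiotic mRNAs were recovered. Of 42 genes of meiosis on the array 29 were above background on both inputs. Of these 29 input-detected genes of meiosis, 9 (31.0%, against 37.1%) were above background on both IPs, 4 were recovered (13.8%, against 6.59% of all genes) and 2 depleted (6.90%, against 8.87%). Tex12, a protein of the synaptonemal complex, went from 2.78 and 2.99 to 6.08 and 6.70. Ccnb1ip1 (HEI10), a crossover factor, rose by 4.26 ± 0.43. Stra8, the gene that retinoic acid induces at meiotic entry, went from 0.28 and 0.73 to 2.75 and 3.98, and Sycp3, a synaptonemal complex protein, from 0.95 and 1.00 to 3.56 and 3.16. Psmc3ip, which acts in strand exchange and was depleted, was not above background on either IP array, and its bound was 3.11-fold. Of the genes of the list above background on all 4 arrays, Stag3 stood lowest, at -1.81 ± 0.41 (limma adjusted p = 0.00487), under 4-fold. Smc1b differed by -0.14 ± 0.40 and was not called.

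A list of 10 genes discussed as DAZL targets in earlier work was also read. Of these, 6 were recovered (against 6.59% of all genes) and 3 were not called (1 of them not above background on both IPs). The 1 depleted gene (against 8.87% of all genes) was Tpx2, a spindle assembly factor (-2.11 ± 0.53, with 1 of the IP arrays above background). In the top quartile of input signal 3 of 4 genes of the list were recovered, against 9.08% of all genes. Tex19.1, a germline gene that restrains transposons, rose most, from 5.54 and 5.80 to 10.13 and 10.95, a difference of 4.86 ± 0.46 (SE, n = 2, limma adjusted p = 4.63e-05). The caspase genes Casp9 and Casp2 rose by 3.62 and 2.78, and Sall4, a zinc finger protein of pluripotent and germ cells, by 2.49. Targets of this protein were named in the study from these arrays too, so the list is not independent evidence of a direction.

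Some Polycomb genes were recovered. Of 32 input-detected genes of Polycomb and DNA methylation, 5 were recovered (15.6%, against 6.59% of all genes) and 1 was depleted (3.12%, against 8.87%). In the top quartile of input signal 1 of 10 was recovered, near the 9.08% of all genes, and 9 of the 10 lay above the median of all genes. Pcgf5, a subunit of a variant Polycomb complex 1, rose by 4.47 ± 0.41 and Rnf2, the catalytic subunit of that complex, by 2.31. Of Polycomb complex 2, Jarid2 rose by 3.24 and Suz12 by 2.22, whereas Ezh2, its methyltransferase, went from 2.01 and 1.90 in the inputs to below background on both IP arrays (at least 2.80-fold lower).

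Ubiquitin ligases gave the largest number of recovered genes of any list. Of 98 input-detected RNF and TRIM genes, 17 were recovered (17.3%, against 6.59% of all genes) and 3 were depleted. Their share above background on both IPs, 39.8%, was close to the 37.1% of all genes. Besides Rnf138 and Rnf2, Rnf182 rose by 4.73, Rnf11 by 4.29 and Trim6 by 4.22. Rnf7, the RING subunit of cullin ligases, went from 4.95 and 5.09 to 8.71 and 9.53, and Rnf114 and Rnf149 rose by 3.19 and 3.75 from a high input. In the top quartile of input signal 6 of 20 were recovered and 1 depleted, and the median lay 0.88 above that of all genes.

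Substrate adaptors of cullin ligases gave 11 recovered genes among 88 (12.5%, against 6.59% of all genes) and 2 depleted ones (2.27%, against 8.87%). Fbxw11 (β-TrCP2) went from 4.94 and 5.03 to 7.82 and 8.51, Fbxw2 rose by 3.72 and Fbxo9 by 3.40. Fbxo5 (EMI1), the inhibitor of the anaphase-promoting complex, was depleted, with a bound of 2.67-fold. Among 269 genes named Zfp the shares were 13 recovered (4.83%, under the 6.59% of all genes) and 5 depleted, with Zfp318 and Zfp516 (4.74) the largest rises and Zfp771 (-2.88, 1 IP array above background) the largest fall.

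Cell cycle genes gave calls in both directions. Of 45 cyclins, CDKs and CDK inhibitors, 6 were recovered (13.3%, against 6.59% of all genes), among them Ccni (2.88), Cdk9 (2.80), the kinase of transcription elongation, and Cdkn2d (2.72), an inhibitor of CDK4 and CDK6. Depleted were 5 (11.1%, near the 8.87% of all genes), among them Ccnd3 and Cdk4, the cyclin and kinase of the G1 phase. Ccnd3 had inputs of 4.06 and 3.88 and IPs of -0.40 and 0.96, with 1 IP array above background, and Cdk4 had inputs of 2.62 and 2.39 and was above background on neither IP.

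**Figure D3:**
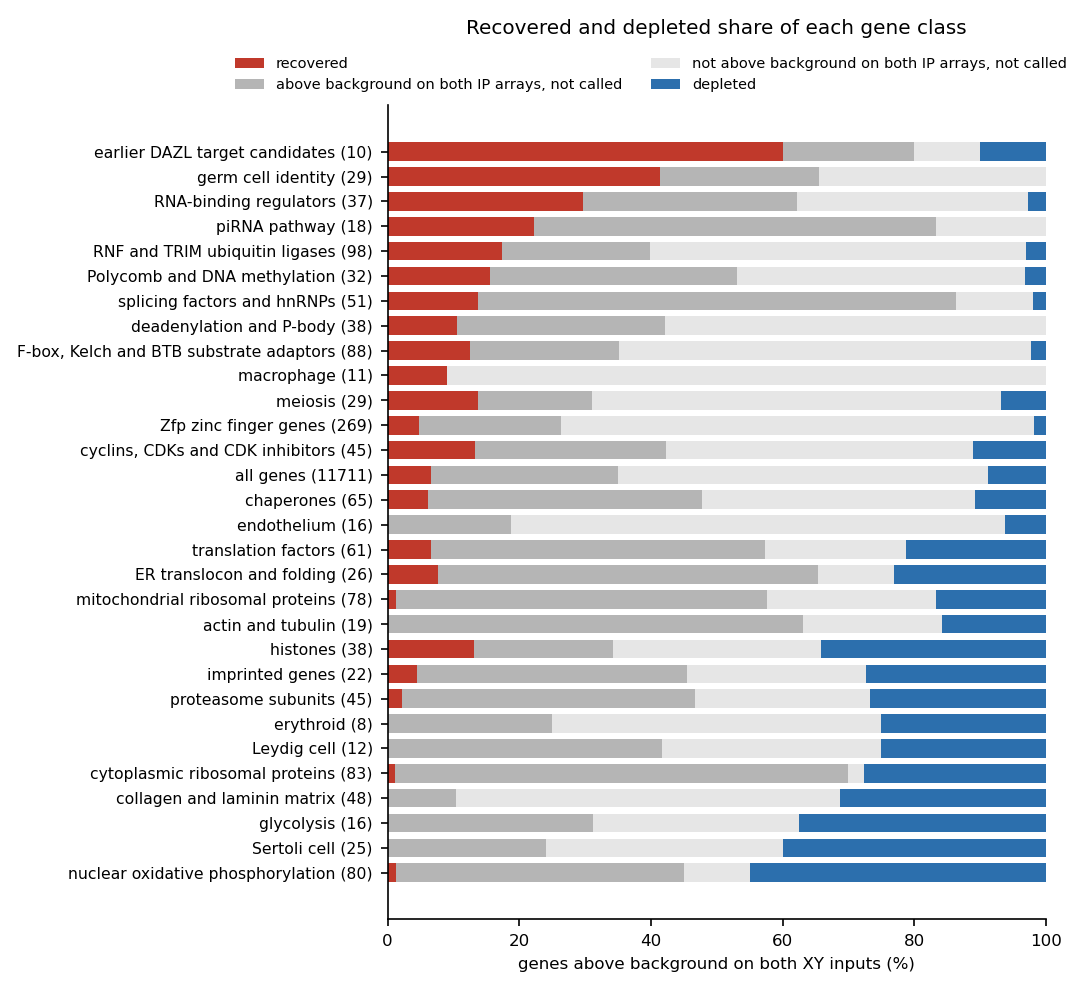
Share of the genes of each class above background on both XY inputs (%, number of genes in parentheses) that were recovered, depleted, or not called with or without being above background on both IP arrays. Germ cell identity (12 of 29 recovered, 0 depleted) and nuclear oxidative phosphorylation (1 of 80 recovered, 36 depleted) lie near the ends, and of all 11711 genes 772 were recovered and 1039 depleted.

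Transcripts of the mitochondrial genome fell steeply. Probes named for the mitochondrially encoded transcripts CYTB, ND4L and COX2 gave the 3 largest of the 20 largest falls above background on all 4 arrays. COX2, cytochrome c oxidase subunit 2, had input signals of 8.87 and 9.26 and IP signals of 4.67 and 4.80. The files place this probe at chr1:24569175-24569234 on mm8, although its gene name is that of a mitochondrial transcript, so which of these sequences it measured is not settled, while the probes of CYTB and ND4L lie on the mitochondrial genome. CYTB, cytochrome b, had inputs of 6.81 and 7.33 and IPs of 2.18 and 2.30. Their falls were -4.33 ± 0.42 and -4.83 ± 0.42 (SE, n = 2, limma adjusted p = 5.1e-05 and 3.27e-05), and that of ND4L was -4.38 ± 0.53. Mitochondrially encoded RNAs are made and kept inside the mitochondrion, away from cytoplasmic proteins, and the 3 probes still gave IP signals above background on both arrays.

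mRNAs for the nuclear-encoded subunits of the respiratory chain were depleted more often than those of any other list with more than 30 genes. Of 80 such genes above background on both inputs, 36 were depleted (45.0%, against 8.87% of all genes) and 1 was recovered. Uqcrq, a subunit of complex III, fell from 6.17 and 6.17 to 2.65 and 3.28, a difference of -3.20 ± 0.43 (SE, n = 2, limma adjusted p = 0.000274). Ndufs4 of complex I, Cox6a1 of complex IV and Atp5e of the ATP synthase differed by -2.84, -2.64 and -2.60. The exception was Ndufc2, of complex I, whose signals rose from 5.67 and 5.89 to 8.24 and 9.01. In the top quartile of input signal 33 of 69 genes were depleted, against 16.8% of all genes, and the median minus that of all genes was -1.18 (-1.14 and -1.10 with each IP array).

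Ribosomal protein mRNAs were nearly all seen in the IPs and lay low there. Of 83 cytoplasmic ribosomal protein genes, 81 were above background on both IPs, 23 were depleted (27.7%, against 8.87%) and 1 was recovered. Rpl28 went from 7.66 and 7.57 to 4.39 and 5.02, Rpl35 from 7.76 and 8.03 to 5.00 and 5.37. Rpl41 and Rps29 differed by -2.41 and -2.45. Rpl21 rose by 2.14, at a probe whose input signal (0.49 and 1.35) was far below that of the class. Among the 79 genes in the top quartile of input signal, 57 lay below the median of all genes and the class median minus that of all genes was -0.83. Ribosomal protein genes have many processed pseudogenes, and a probe cannot tell close copies apart.

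Mitochondrial ribosomal proteins gave 13 depleted genes of 78 (16.7%, against 8.87% of all genes), 5 of them above background on both IPs, and 1 recovered. Of the 55 in the top quartile of input signal 11 were depleted, near the 16.8% of all genes. Mrps34 and Mrpl33 differed by -2.51 and -2.16, and Mrps14 rose by 3.17 ± 0.46. Of 61 translation factors, 13 were depleted (21.3%, against 8.87% of all genes) and 4 were recovered (6.56%, near the 6.59% of all genes). In the top quartile of input signal 9 of 37 were depleted, against 16.8% of all genes. Eef2, the elongation factor that moves the ribosome, fell from 5.08 and 4.62 to 1.64 and 2.56, and Eif5b and Eef1b2 differed by -2.62 and -2.42. Against these stood Eif1b, Eef1e1 (4.52), a scaffold of the aminoacyl-tRNA synthetase complex, and Eif5a2 (4.11), the less abundant of the eIF5A genes.

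The proteasome gave 12 depleted genes of 45 (26.7%, against 8.87% of all genes) and 1 recovered. In the top quartile of input signal 9 of 30 were depleted, against 16.8% of all genes. Psme1 and Psme2, the subunits of the proteasome's PA28 activator, went from 4.63 and 4.92 to 1.93 and 2.61 and from 5.51 and 5.77 to 2.78 and 3.56. The recovered subunit was Psma8, the α-subunit of the germ cell proteasome, which went from 2.55 and 2.98 to 6.54 and 7.11, a rise of 4.06 ± 0.45 (SE, n = 2, limma adjusted p = 9.88e-05). Glycolytic enzymes gave 6 depleted genes of 16 (37.5%, against 8.87% of all genes) and 0 recovered, all 6 among the 11 in the top quartile of input signal (16.8% of all genes). Pgk1, Ldhb and Aldoa differed by -2.82, -2.49 and -2.15, and Tpi1 by -4.35 ± 0.76 with 1 IP array above background.

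Histone genes were called in both directions. Of 38 input-detected histone genes, 5 were recovered (13.2%, against 6.59% of all genes) and 13 depleted (34.2%, against 8.87%). Of the recovered ones, 4 were H3c14 and H3c4, H3 genes of the histone clusters, H3f3b, a gene of the replacement histone H3.3, and H2az2, a gene of the variant H2A.Z. H3c14 went from 6.53 and 6.53 to 9.77 and 10.17, and H2az2 from 8.22 and 8.40 to 11.43 and 11.99. H3c4 and H3f3b rose by 3.40 and 2.88.

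Of the 13 depleted histone genes, 4 were above background on all 4 arrays, H2ac20, H2ac1 and H2ac10 of the histone clusters and H2aj, the gene of the variant H2A.J. H2ac20 differed by -3.08 ± 0.46, H2ac1 fell from 8.23 and 8.33 to 5.05 and 5.85, and H2ac10 and H2aj differed by -2.69 and -2.82. Clustered histone genes are close copies of each other, so these probes may share their targets and are not independent.

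Splicing factors and hnRNPs gave 7 recovered genes of 51 (13.7%, against 6.59% of all genes) and 1 depleted (1.96%, against 8.87%), and 86.3% of them were above background on both IPs. Of the 51, 38 lay in the top quartile of input signal, where 87.1% of all genes were above background on both IPs. There 5 of 38 were recovered, against 9.08% of all genes. The serine/arginine-rich splicing factor genes Srsf10, Srsf1 and Srsf2 rose by 4.30, 3.37 and 2.85, and Hnrnpf went from 7.26 and 7.43 to 9.83 and 10.42. In the top quartile 31 of 38 lay above the median of all genes. Chaperones gave 4 recovered and 7 depleted genes of 65, near the background in both directions.

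Some chaperones of the endoplasmic reticulum (ER) fell and another rose. Hspa5 (BiP) went from 5.61 and 5.88 to 2.17 and 3.46, Hsp90b1 (GRP94) from 6.33 and 6.73 to 3.31 and 3.74, and Calr (calreticulin) differed by -2.24. Dnajc10, an ER co-chaperone, rose by 2.93 ± 0.41. Of 26 genes of ER translocation and folding, 6 were depleted (23.1%, against 8.87% of all genes) and 2 recovered (7.69%, near the 6.59% of all genes). All 6 were among the 24 in the top quartile of input signal, where 16.8% of all genes were depleted. Subunits of the translocon-associated complex lay on both sides: Ssr2 was at least 6.25-fold lower in the IP, whereas Ssr1 rose by 2.76. Spcs2, of the signal peptidase, rose by 2.53.

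mRNAs of Sertoli and Leydig cells, somatic cells of the testis, were depleted in part and none was recovered. Of 25 Sertoli cell genes above background on both inputs, 10 were depleted (against 8.87% of all genes), 0 were recovered and 7 (28.0%) were above background on both IPs. Of the 10 depleted genes 1 was above background on both IPs, so that most of this count rests on IP signals at background on at least 1 array. Of the 29 Sertoli cell genes of the list, 4 were not tested because they were too dim, among them the transcription factor genes Gata4 and Dmrt1. Clu (clusterin) had inputs of 5.10 and 5.27 and IPs of -0.68 and 1.21, with 1 IP array above background, a difference of -4.92 ± 0.55 (SE, n = 2, limma adjusted p = 9.88e-05). Inha, the inhibin α-subunit, had inputs of 3.90 and 3.94, was above background on neither IP and was at least 11.0-fold lower there, the largest bound of all depleted genes. Ptgds (prostaglandin D synthase) and Dhh (desert hedgehog) differed by -3.94 and -3.40. The highest genes of the list were not called, Sox9, the transcription factor of Sertoli cell fate, at 0.01 ± 0.40 and Aard at -0.64 ± 0.56.

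Defb19, a β-defensin gene of Sertoli cells, fell from 5.27 and 5.49 to 1.34 and 2.14. In the top quartile of input signal, 13 of 14 Sertoli cell genes lay below the median of all genes and the class median minus that of all genes was -2.59 (-2.76 and -2.27 with each IP array). Of 12 Leydig cell genes 3 were depleted (25.0%, against 8.87% of all genes), 1 of them above background on both IPs, and 0 recovered. All 3 were among the 10 in the top quartile of input signal, where 16.8% of all genes were depleted. The depleted ones were Cyp17a1, the 17α-hydroxylase of androgen synthesis (-4.03), Scarb1, the HDL receptor (-4.17), and Hsd3b1, a steroid dehydrogenase, which went from 5.30 and 5.25 to 2.87 and 3.33. Of 16 endothelial genes 1 was depleted, near the 8.87% of all genes, and the 3 above background on both IPs were not called. Of 8 erythroid genes 2 were depleted (25.0%), both among the 4 in the top quartile of input signal (16.8% of all genes), with the α-globin Hba-a1 at -2.24 ± 0.53 and IP signals of 5.70 and 6.52. The β-globin genes Hbb-bt and Hbb-y were not called, at 0.13 ± 0.59 and -1.14 ± 0.55, and the other probes of Hbb-bt ran from -1.88 to -0.12.

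Genes of the extracellular matrix, made by somatic cells, gave 15 depleted genes of 48 (31.2%, against 8.87% of all genes), 5 of them above background on both IPs, and 0 recovered, and all 15 of those in the top quartile of input signal lay below the median of all genes. Dcn (decorin) went from 5.74 and 5.76 to 2.02 and 2.24, and Col18a1 from 5.24 and 5.55 to 1.71 and 2.73. Sparc and Col1a2 differed by -3.04 and -2.71, and Col6a1 was above background on neither IP, with a bound of 3.40-fold. The highest gene of the list, Col22a1, differed by 1.40 ± 0.48 (limma adjusted p = 0.0363), under 4-fold, and by -0.38 at a dimmer probe. Pcolce, which aids the trimming of procollagen, Igfbp7, a secreted binding protein, and Rcn3, a calcium-binding ER protein, gave -3.61, -3.33 and -3.26 among the 20 largest falls.

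**Figure D4:**
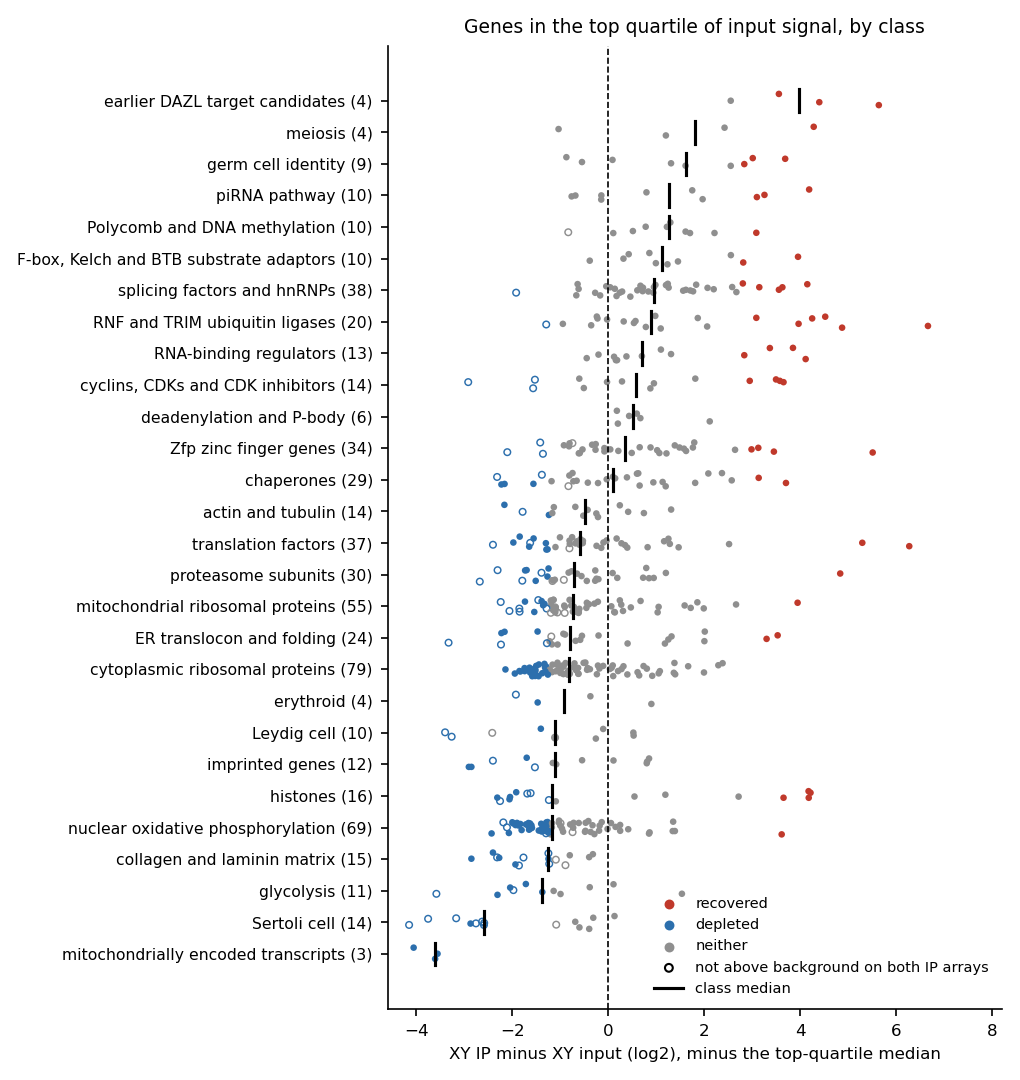
Difference between the XY IP and the XY input (log2) minus the median of all genes in the top quartile of input signal (-0.77), for the genes of each class in that quartile (number in parentheses), 1 point per gene. Open circles are genes not above background on both IP arrays, whose levels there are upper bounds on at least 1 array, and black bars are class medians. Sertoli cell, glycolysis, matrix and respiratory chain genes lie to the left, and germ cell, piRNA and splicing genes to the right.

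Imprinted genes gave 6 depleted (27.3%, against 8.87% of all genes) and 1 recovered (4.55%, against 6.59%) of 22. The recovered one was Zrsr1, a homologue of a splicing factor subunit, with a rise of 3.36 ± 0.37. Dlk1, a Notch ligand homologue of fetal tissue, went from 6.03 and 6.30 to 1.85 and 3.13, and the noncoding RNAs H19 and Meg3 differed by -2.47 and -3.18, Meg3 with 1 IP array above background. Of 19 genes of actin, tubulin and proteins that bind actin 3 were depleted, all in the top quartile of input signal, where this was 3 of 14 against 16.8% of all genes, among them the actin-binding peptide gene Tmsb10 (-2.94) and Tuba1a (-2.01). Tubb5 (0.54) and Tpm3 (-0.03) of the same list were not called. Of 7 ovarian supporting cell genes detected in these inputs, the Wnt effector Lef1 was recovered (3.94) and none was depleted.

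Some of the largest falls belonged to none of these lists. Ncl, nucleolin, an abundant nucleolar RNA-binding protein, went from 6.29 and 5.74 to 2.17 and 2.24, and of its 4 tested probes 3 fell, by 3.81, 3.50 and 2.79, while the dimmest rose by 1.13 with 1 IP array above background. Jak3, a kinase of cytokine receptors, went from 5.83 and 6.08 to 1.60 and 3.09. Sct, Ddah2, Nasp (a histone chaperone), Ebp (a sterol isomerase), Serpina3a and 3000002C10Rik differed by -3.45, -3.22, -3.16, -3.15, -3.11 and -3.12. Of the 20 largest falls, 16 also lay at least 4-fold lower in the IP of XX gonads. How many of all depleted genes did so was not counted.

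Where the IP was below background on both arrays, a fall could only be bounded. Of the 1039 depleted genes, 241 were above background on both IP arrays, 353 on 1 and 445 on neither, and of the last 35 had a bound of 4-fold or more. After Inha the largest bounds were those of Tmem132a (at least 7.61-fold), Cpe, carboxypeptidase E (at least 7.56-fold), Haus7, of the augmin complex (at least 6.34-fold), and Ssr2. For an input level in bulk gonads, fewer cells of a type and less RNA per cell cannot be told apart.

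Among genes above background on all 4 arrays, the median span of the gene on its chromosome, from the GRCm38.p6 reference, was 29.0 kb for recovered genes, 6.71 kb for depleted genes and 22.8 kb for all. Of 178 such genes on the X chromosome, 39 (21.9%) were recovered, not far from the share on all chromosomes (772 of 4345). Gene span moved with the calls, and so did input signal, with medians of 1.68 for recovered genes, 5.10 for depleted genes and 3.12 for all. A gene of low input entered this set only if it was high in the IP. The parts of span and input in the result were not tested.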

How the data were processed

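RNA precipitated with an anti-DAZL antibody and input RNA of XX and XY gonads were hybridized to 8 one-colour Agilent whole mouse genome arrays. The deposited scanner files hold background-subtracted processed intensity values per spot from Agilent Feature Extraction (9.5 per the labels), with the mean and local background intensity per the file headers, and probe positions on mm8. The deposited value table holds log2 values, in which the authors had raised values below 1 to 1 and divided each array by its 75th percentile. Its correlation with the values used here was at least 0.99996 on every array.

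From the scanner values, spots marked as outliers were dropped, a floor of 1 was set, repeated spots of a probe were averaged, and log2 signals were given relative to each array's 75th percentile of non-control probes. Outliers removed 73 of 41174 probes, and no probe was saturated. A probe was tested if both arrays of 1 of the 4 groups marked it well above background, which left 18265 of 41101 (44.4%). Having 2 arrays in a group limits the precision. limma 3.58.1 in R 4.3.3 was fitted to the 8 arrays together, a mean for each group, and moderated by empirical Bayes (residual degrees of freedom 4, prior 7.82). Tests were two-sided, and the procedure was checked on simulated data. There a probe had the same spread in all groups and no scaling or background effect. The check therefore does not cover the larger spread of the IPs or the dependence on scaling. Where a side was dim on both arrays, its level was taken per array as the higher of its signal and the lowest signal well above background ("at least").

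Probes were named through the accession in the files and the GRCm38.p6 gene table (23366 by the main accession, 22 by another), by symbol (6739) or by synonym (2918), and 8129 stayed unnamed. Each gene was represented by its tested probe of highest mean XY signal. Chosen for naming were Dazl and 5 of the largest bounds in each direction. The 20 largest rises and falls among called genes above background on all 4 XY arrays were also chosen. From each of 31 gene lists the 2 highest and 2 lowest genes above background on all 4 XY arrays were added. Some of these list genes are not described above. Among them are low ones in lists with many recovered genes and high ones in lists with many depleted genes. Further genes of a list were chosen after their values were seen, and 1 gene is not reported here. The members, lists and limits were chosen with earlier results of these data known, and the entries for mitochondrial transcripts, proteasome subunits and translation factors were corrected after the gene names were seen. Alternatives were other scalings, background corrections, filters, fits and left-out arrays. All XY arrays were on 1 slide and all XX arrays on another, so sex and slide cannot be told apart.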

Additional observations from a re-analysis of the deposited data

Results flagged for a closer look

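Among the genes with the largest rises, falls and bounds in XY, recovery differed between XX and XY for 13 at an adjusted p under 0.05 for the difference itself (limma, XX minus XY of the IP minus input difference, in log2 units). Sex and slide cannot be told apart here, and the cause was not tested.

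Of the 20 largest rises in XY, Dixdc1 differed by -6.17 (adjusted p = 0.00136), 5830417I10Rik by -6.04, Krtap9-1 by -5.42, Ctu1 by -5.26, Dnajc12 by -4.20 and Serpinc1 by -2.81 (adjusted p = 0.0243). Their own XX differences between IP and input ran from -1.01 for 5830417I10Rik to 2.70 for Serpinc1.

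The 5 genes with the largest bounds of recovery in XY gave -6.40 (Olfr1215), -5.16 (2310079G19Rik), -5.05 (Pram1), -4.32 (Plek) and -3.44 (Nkx2-3). Their XY inputs were not above background, so these sizes depend on signals at background. The genes were chosen for their high XY IP signals, which enter these values, so the values are no separate support for a difference.

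Of the 20 largest falls, Jak3 differed by 5.97 (adjusted p = 0.00209), with XX and XY differences of 2.36 and -3.61, and Defb19 by 2.90 (adjusted p = 0.0263), with -0.74 and -3.64.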

How the results depend on the processing

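The numbers of recovered and depleted probes (1104 and 1403) depended on the scaling and the background correction. They were 196 and 8379 with arrays scaled to the 50th percentile, 947 and 1824 scaled to the probes detected on all 4 arrays, 1066 and 2478 with quantile normalization, 21 and 801 with normexp, 69 and 1942 with normexp after outlying local backgrounds were replaced, and 716 and 455 with a common floor after scaling. Only probes detected on all 4 XY arrays gave 319 depleted, and a fit without moderation on the XY arrays alone gave 10 and 2. Leaving out 1 array gave 940 to 1338 recovered and 1054 to 2217 depleted, the last without the second IP array, with the lone sample assumed to vary like the other groups. Scaling to the spike-in controls, chosen after seeing the data, gave 41 and 14076, and asking in addition for an IP above background or a bound of 4-fold, also chosen then, gave 374 depleted. The Dazl difference (2.06) was under the 4-fold limit with the 50th percentile (0.20), detected probes (1.87), quantile (1.72) and normexp (0.027), did not pass without moderation (2.06), turned with replaced backgrounds (-0.14) and with spike-in scaling (-1.07), and lay between 1.86 and 2.27 with 1 array left out. The replicate block, a paired fit, gave 1104 and 1410 probes and a Dazl difference of 2.06; same-numbered arrays share only a number (correlation of their deviations 0.149, 2 pairs), and it changed no other call among the genes named. For the named genes other than Dazl, 2279 of 2726 values from alternatives kept their side of the limit and their direction, 418 lost the call, 13 gained it and 16 turned, these 16 being values of Sox9, Hbb-bt, Aard and Col22a1, which were not called. Sox9 (0.01) turned with the 50th percentile (-1.85), detected probes (-0.18), normexp (-0.55) and replaced backgrounds (-0.89) and ran from -0.15 to 0.17 with 1 array left out. Hbb-bt (0.13) turned with these (-1.74, -0.064, -1.97 and -2.10) and quantile normalization (-0.62) and ran from -0.75 to 1.00, and Aard (-0.64) from -1.43 to 0.14. Col22a1 (1.40) turned with the 50th percentile (-0.46), normexp (-0.089) and replaced backgrounds (-0.11). Class medians minus that of all genes gave 466 alternative values, over genes detected on all 4 arrays except for those of the top quartile. Scaling by a constant per array and changes of the fit or filter cannot change such a difference, so many values were fixed in advance. Of the 466, 361 moved by less than the SD between the values of the 2 IP arrays, 99 moved more and kept their direction, and 6 turned. Splicing factors turned with quantile (-0.11), normexp (-0.32) and normexp with replaced backgrounds (-0.33) from 0.17. Histones turned without the first IP array (-0.044, with -0.044 to 0.40 over the arrays left out) and in the top quartile of input signal (-1.17) from 0.41. Chaperones turned in the top quartile (0.095) from -0.38. Counting genes above background on at least 1 IP array, 70.5% of the F-box, Kelch and BTB genes against 61.1% of all genes were seen, where with both arrays it was 35.2% against 37.1%. The causes were not tested. Signal over background limits every value of an mRNA of low input.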

Other observations

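The arrays carry spike-in control RNAs (E1A), of which 8 of 10 were above background on every spot of all 8 arrays. Their mean signal on the XY arrays differed by -0.24 (log2, IP minus input, before scaling), while the 75th percentile of the array's probes fell from 118 and 81.1 to 6.83 and 13.1. Relative to the spike-ins, the median difference of probes above background on all 4 XY arrays was -2.81, against 0.33 on the scale used here. The amounts of RNA labelled differed between IP and input, and at which step the spike-ins were added is not given in the sources used here.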
